A study of Rattus norvegicus with 2 samples.

Results

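The nuclear genes for the subunits of the mitochondrial respiratory chain were followed in adductor muscle of the rat hindlimb, from the inner thigh. They were chosen by symbol in the platform annotation: every gene beginning with Ndufa, Ndufb, Ndufc, Ndufs, Ndufv, Uqcr, Cox4 to Cox8 or Atp5, without the assembly factors named Ndufaf, together with Sdha, Sdhb, Sdhc, Sdhd and Cyc1. This gave 81 genes with 90 probe sets, of 14217 genes on the array that have a probe set with a single symbol. By complex there were 34 genes of complex I, 4 of complex II, 8 of complex III, 19 of complex IV and 16 of complex V. The rule uses symbols and no measured value, although it was written with earlier results of these data known.

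The stimulated sample was adductor muscle of a left hindlimb that had been pricked 100 times with a steel needle of 0.14 mm diameter, within a square of 10 mm sides, and was taken 24 hours later. The control sample was adductor muscle of a right hindlimb that received no treatment. Both came from male Lewis rats of 275 g, an inbred strain, and no other allele or agent is named. Each limb was represented by 1 Affymetrix array of total RNA, the labels do not number the rats, and no difference below was tested or has a replicate check.

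The respiratory chain passes electrons from NADH (complex I) and succinate (complex II) through ubiquinone to complex III and, by cytochrome c, to complex IV, which reduces oxygen. Complexes I, III and IV pump protons across the inner mitochondrial membrane, and complex V, the ATP synthase, uses the gradient to make ATP. Apart from complex II, each complex also holds subunits encoded by mitochondrial DNA, so most are built from the products of both genomes. Skeletal muscle fibres are rich in these transcripts, slow and oxidative fibres more than fast glycolytic ones, and muscle uses its own isoforms of some complex IV subunits.

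Values are MAS5 signals, a linear brightness per probe set, and each gene stands by its brightest probe set. A gene was counted as measured where at least 1 array reached a floor of 19.8, the median of all signals, and 9956 genes were. Across those genes the median log2 ratio of stimulated over control was 0.019, and all directions below are relative to this scaling by the authors. The bacterial and phage spike-ins, 18 probe sets, all had lower signals in the stimulated sample (median log2 ratio -0.38). RNA integrity, read as the 3'-to-5' ratio of beta-actin signals, was 2.43 for the stimulated limb and 2.26 for the control limb. The only error at hand is the spread between probe sets of the same gene: the SD of a single log2 ratio was 0.31 over 2174 genes, and 0.25 in the 724 brightest of them. It leaves out differences between limbs and animals. The tissue carried its label, since the fibre genes Ckm (12064 stimulated, 16392 control) and Acta1 (12095 stimulated, 16712 control) were among its brightest.

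The respiratory chain genes were nearly level between the limbs. Of the 81 genes, 79 were measured, all of them on both arrays, with mean signals from 32.4 to 7049 and a median of 2833. Their log2 ratios had a median of 0.049, and the middle 50% lay between -0.11 and 0.14, against -0.22 to 0.25 for all measured genes. A total of 64 genes (81.0%) lay within 1.2-fold, against 55% of all measured genes. Of the 79, 50 were above 0 and 29 below, which is 36.7% below, against 47.7% of all measured genes. At 1.5-fold, 2 genes were higher, against a background of 6.59%, and 3 were lower, against 6.94%. At 2-fold, 0 were higher and 0 lower, against 1.43% of all measured genes in each direction. The 2 unmeasured genes, Cox6b2 (1.10 stimulated, 12.1 control) and Cox7b2 (2.85 stimulated, 0.56 control), encode complex IV isoforms known from testis, and both lay under the floor in both limbs.

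**Figure D1:**
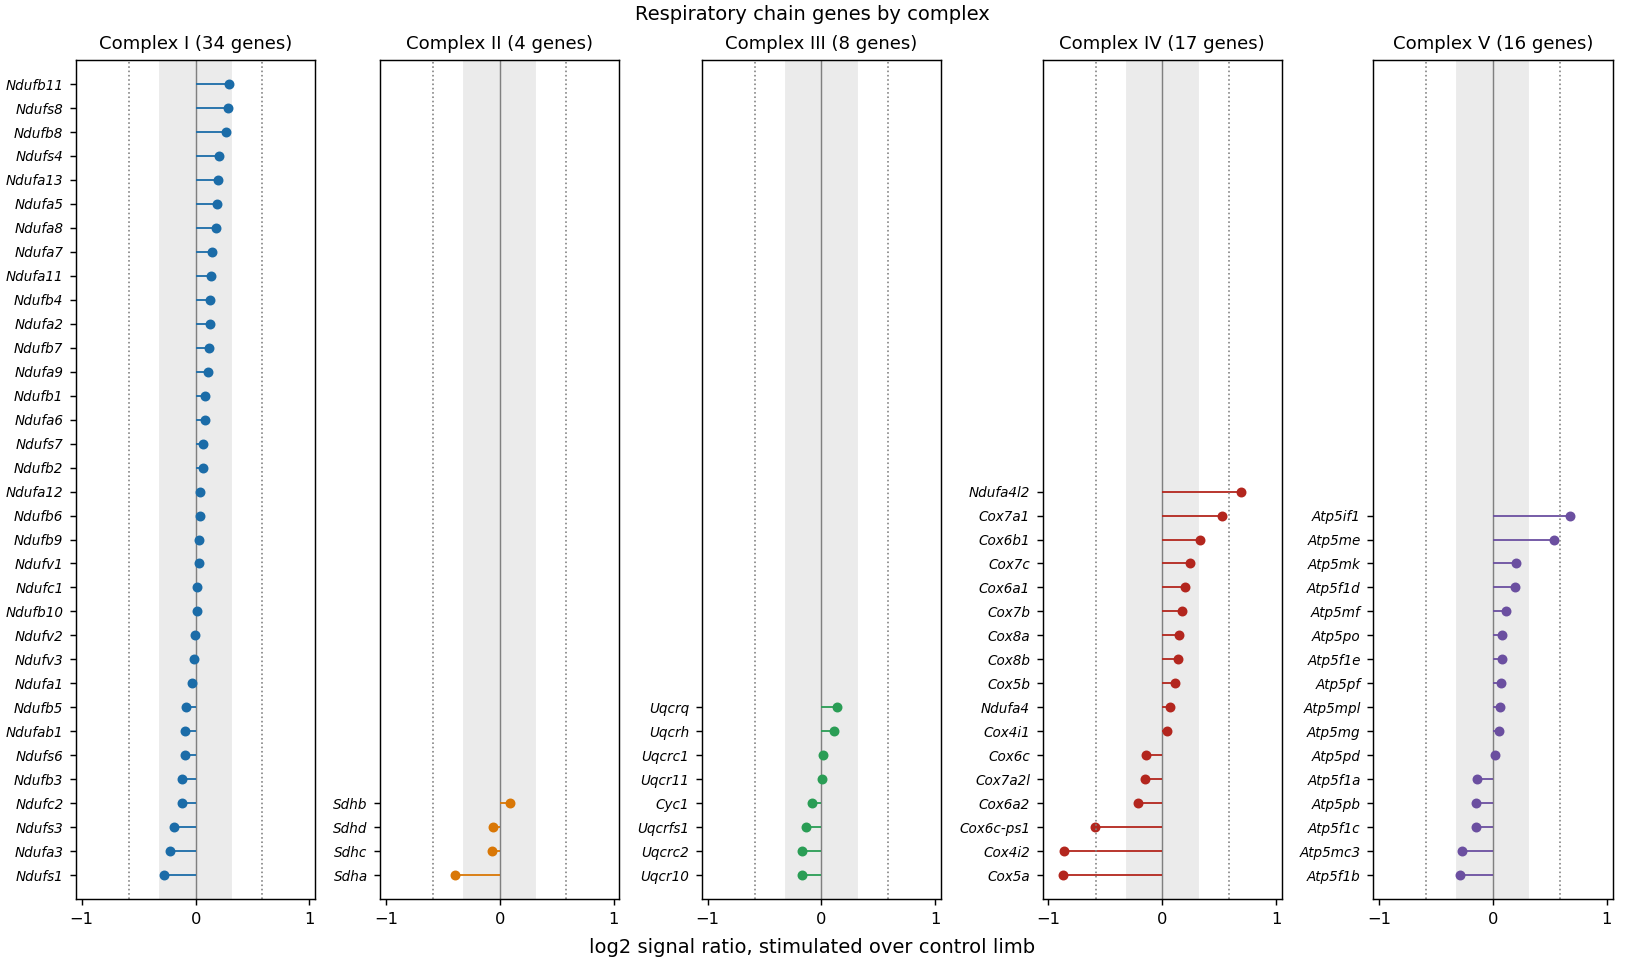
Log2 ratio of the MAS5 signal in the stimulated over the control limb for each of the 79 measured respiratory chain genes, in 1 panel per complex; the grey band is the probe set SD of 0.31 on either side of 0 and dotted lines mark 1.5-fold. All genes of complexes I and III lie inside the band, and the 5 genes beyond 1.5-fold are in complexes IV and V.

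Most of these genes are bright, and bright genes on an array are measured with less relative noise, so they were also set beside genes of like brightness. Of the 65 members with a mean signal of 1000 or more, 60 (92.3%) lay within 1.2-fold, against 65.6% of all 553 genes that bright. Between signals of 2000 and 4000 the shares were 93.8% of 32 members and 71.3% of all 164 genes, and from 4000 up they were 89.5% of 19 members and 59.6% of all 104 genes. These shares describe 2 arrays, and the genes counted as all include the members. None of the 65 members of mean signal 1000 or more reached 1.5-fold, and all 5 members that did were dimmer. Few genes of that brightness did so: of all 553, 23 passed this mark upwards and 11 downwards. Whether the absence of such members among only 65 sets them apart from other bright genes was not tested. The brightest genes of the array leaned towards lower signals in the stimulated limb, with a median log2 ratio of -0.14 from 4000 up, and the 19 members in that range had a median of -0.034. Over all 79 members the log2 ratio and log2 mean signal had a Pearson r of 0.011 and a Spearman rho of -0.22. These correlations are across genes, which share both arrays.

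**Figure D2:**
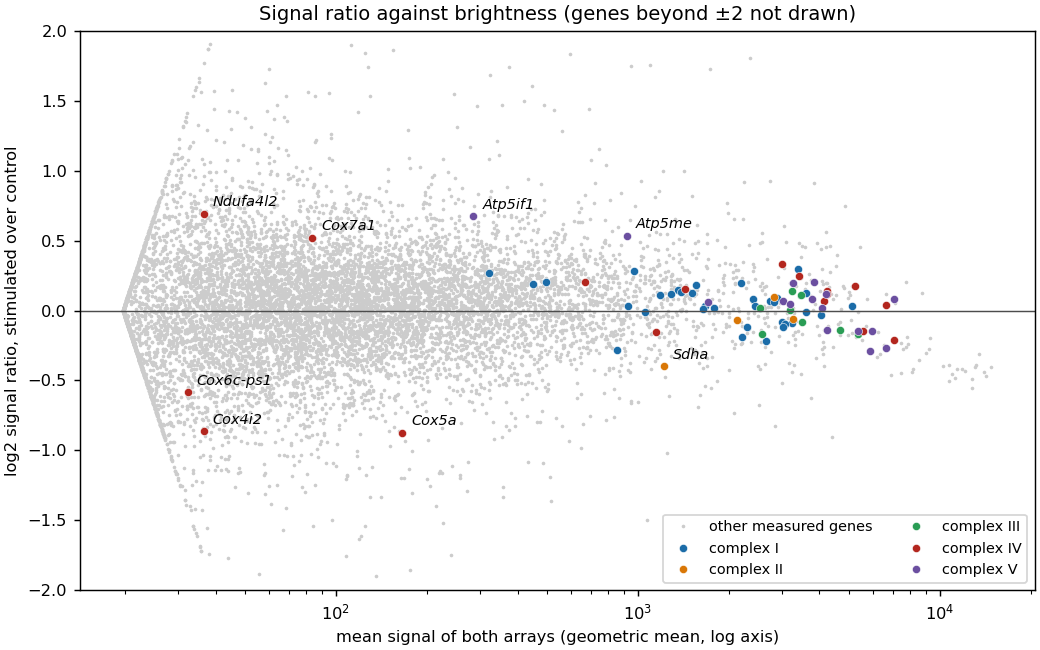
Log2 signal ratio of stimulated over control limb (vertical axis) against the mean signal of both arrays (horizontal log axis) for members coloured by complex and for all other measured genes in grey. Members of mean signal 1000 or more lie between -0.40 and 0.34, and the 5 members beyond 1.5-fold are all dimmer than that.

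Promoter sequence was also described, and whether it bears on the level ratios was not tested. Nuclear respiratory chain genes are known targets of NRF1, of ETS-family factors such as GABP (NRF2), and of YY1. The RefSeq table (build GRCr8) held 300 bases, from 250 before to 50 after the start, for 72 of the 81 genes. Searched on both strands, the NRF1 letters, GCGCA and GCGC with 1 base of any kind between them, occurred in 13 of 72 member promoters (18.1%), in 4.25% of all 33469 promoters and in 13.3% of the 406 promoters of other genes with a mean signal of 1000 or more. The ETS letters CCGGAAG occurred in 20 (27.8%), in 8.75% of all and in 15.0% of those bright genes. The YY1 letters AAGATGGC occurred in 16 (22.2%), in 3.17% of all and in 6.40% of the bright genes. The TATA letters TATAAA, which belong to none of these factors, occurred in 8 (11.1%), in 14.2% of all and in 13.8% of the bright genes. At least 1 of the NRF1, ETS and YY1 motifs was found in 40 member promoters (55.6%), in 17.9% of 21842 protein-coding promoters and in 29.8% of the same 406 bright genes. Matches overlapped in 1 place among the member promoters. Median log2 ratios were 0.036 with (13 measured genes) and 0.069 without (57) the NRF1 letters, and 0.10 with (20) and 0.035 without (50) the ETS letters. They were 0.097 with (16) and 0.038 without (54) the YY1 letters, and 0.093 with (8) and 0.066 without (62) the TATA letters.

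The promoters of 4 genes are shown 5' to 3' on the gene's strand, with motif matches in capitals. Sdha (chr1:30764303-30764602, plus strand) held NRF1 letters in 3 places and had the lowest ratio among the bright members. Atp5me (chr14:1464610-1464909, plus strand) held the YY1, NRF1 and ETS letters and was among the members with the highest ratios. Cox8a (chr1:213833574-213833873, minus strand) and Cox8b (chr1:205408224-205408523, minus strand) are the ubiquitous and the muscle isoform of 1 subunit; the capitals mark ETS in 2 places and YY1 in Cox8a, and TATAAA alone in Cox8b.
Sdha: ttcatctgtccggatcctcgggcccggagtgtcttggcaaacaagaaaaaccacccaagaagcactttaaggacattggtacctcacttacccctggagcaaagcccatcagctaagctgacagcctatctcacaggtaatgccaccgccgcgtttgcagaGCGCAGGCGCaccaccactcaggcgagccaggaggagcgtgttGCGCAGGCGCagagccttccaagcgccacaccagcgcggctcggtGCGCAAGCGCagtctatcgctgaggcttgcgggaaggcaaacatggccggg
Atp5me: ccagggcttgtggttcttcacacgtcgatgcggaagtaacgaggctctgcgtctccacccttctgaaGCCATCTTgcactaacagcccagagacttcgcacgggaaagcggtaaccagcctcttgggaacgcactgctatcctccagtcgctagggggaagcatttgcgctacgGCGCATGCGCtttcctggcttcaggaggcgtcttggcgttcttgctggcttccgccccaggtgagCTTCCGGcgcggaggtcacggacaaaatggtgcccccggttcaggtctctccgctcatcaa
Cox8a: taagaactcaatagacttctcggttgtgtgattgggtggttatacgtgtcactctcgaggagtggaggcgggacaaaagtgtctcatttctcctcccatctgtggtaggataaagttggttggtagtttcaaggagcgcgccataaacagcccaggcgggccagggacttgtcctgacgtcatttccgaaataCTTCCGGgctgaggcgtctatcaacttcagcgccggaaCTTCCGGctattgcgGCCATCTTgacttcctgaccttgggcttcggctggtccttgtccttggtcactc
Cox8b: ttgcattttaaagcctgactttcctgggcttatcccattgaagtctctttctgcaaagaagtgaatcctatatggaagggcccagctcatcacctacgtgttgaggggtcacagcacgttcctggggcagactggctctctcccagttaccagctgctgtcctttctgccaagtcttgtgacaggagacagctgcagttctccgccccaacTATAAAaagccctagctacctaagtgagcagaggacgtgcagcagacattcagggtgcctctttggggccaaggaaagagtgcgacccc
A match is a run of letters and not a shown binding site. The Cox8 pair differed in these letters and had log2 ratios of 0.15 for Cox8a and 0.14 for Cox8b.

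Complex I, the NADH dehydrogenase, had 30 of its 34 genes within 1.2-fold. They had a median log2 ratio of 0.050, with 23 above 0 and 11 below, a range of -0.28 to 0.30, and 0 genes at 1.5-fold. The conserved core, which binds NADH and carries the iron-sulphur clusters, was followed in 6 nuclear genes. Ndufv1, the NADH-binding subunit, had a signal of 938 in the stimulated and 919 in the control limb. Its iron-sulphur partner Ndufv2 had 3600 in the stimulated and 3621 in the control limb. Both stood within 0.03 of 0 on the log2 scale. Ndufs1, the largest iron-sulphur subunit, had 772 in the stimulated and 938 in the control limb, a log2 ratio of -0.28 and the lowest of the complex. Ndufs3, of the module that reduces ubiquinone, had 2072 in the stimulated and 2365 in the control limb (-0.19). Lying above 0 were the cluster-bearing subunits Ndufs7 (2806 stimulated, 2675 control, 0.069) and Ndufs8 (1067 stimulated, 879 control, 0.28). The core thus went both ways, 3 genes above and 3 below 0, and each value was within the probe set SD of all genes, with Ndufs1 and Ndufs8 beyond the 0.25 of the brightest genes.

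The 28 accessory subunits of complex I, which surround and stabilise the core, had a median of 0.072, with 20 above 0. Highest were Ndufb11 (3760 stimulated, 3062 control, 0.30) and Ndufb8 (354 stimulated, 294 control, 0.27), both of the membrane arm. Ndufs4, whose loss causes Leigh syndrome in humans, had 536 in the stimulated and 465 in the control limb (0.20). Lowest was Ndufa3 (2468 stimulated, 2877 control, -0.22), a membrane arm subunit, followed among the accessory genes by Ndufc2 (2215 stimulated, 2409 control, -0.12) and Ndufb3 (2904 stimulated, 3154 control, -0.12). By name, 9 of 12 Ndufa genes and 9 of 11 Ndufb genes were above 0, with medians of 0.12 and 0.064, and all 12 Ndufa genes lay within 1.2-fold. Among the brightest were Ndufb9 (5174 stimulated, 5054 control) and Ndufa1 (3988 stimulated, 4085 control), which differed by under 0.04 on the log2 scale. The acyl carrier protein Ndufab1, which also serves mitochondrial fatty acid synthesis, had 3130 in the stimulated and 3336 in the control limb (-0.092). Ndufa13, also known as GRIM-19, had 2351 in the stimulated and 2054 in the control limb (0.19). Signs of genes this close to 0 are not firm: quantile normalization turned 4 of the 34 and a brightness-dependent centring 4, each with a log2 ratio under 0.04 in size.

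Complex II, succinate dehydrogenase, joins the citric acid cycle to the chain and is the only complex with no mitochondrially encoded subunit. Of its 4 genes, Sdha, the flavoprotein that oxidises succinate, had 1065 in the stimulated and 1400 in the control limb. This was 1.32-fold lower, with a log2 ratio of -0.40, the lowest among members of mean signal 1000 or more and beyond the probe set SD. Sdhb, the iron-sulphur subunit, had 2911 in the stimulated and 2728 in the control limb (0.094). The membrane anchors Sdhc (2079 stimulated, 2175 control, -0.065) and Sdhd (3206 stimulated, 3341 control, -0.060) were close to level, and a second Sdhd probe set stood at -0.12. Sdha therefore lay apart from its 3 partners, on a single probe set. Its ratio was -0.46 with quantile normalization and -0.43 with brightness-dependent centring.

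Complex III, the cytochrome bc1 complex, had all 8 measured genes within 1.2-fold, from -0.17 to 0.14, with 4 above and 4 below 0. Its electron-carrying subunits were Cyc1, cytochrome c1 (3408 stimulated, 3602 control, -0.080), and Uqcrfs1, the Rieske iron-sulphur protein (4453 stimulated, 4895 control, -0.14). The core proteins were Uqcrc1 (2561 stimulated, 2535 control, 0.015) and Uqcrc2 (2436 stimulated, 2737 control, -0.17). A second Uqcrc2 probe set gave 1010 in the stimulated and 996 in the control limb (0.019), so the sign of Uqcrc2 depended on the probe set. The small subunits Uqcrq (3388 stimulated, 3081 control, 0.14) and Uqcrh, the hinge protein (3616 stimulated, 3355 control, 0.11), were highest. Uqcr10 (5069 stimulated, 5706 control, -0.17) was lowest, and Uqcr11 (3191 stimulated, 3186 control) was level. A probe set listing Uqcrb with a like-named copy, which the choice of genes left out, stood at -0.17.

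Complex IV, cytochrome c oxidase, held the widest spread, from -0.87 to 0.69, with a median of 0.11 over 17 measured genes, 11 above and 6 below 0. Ndufa4 and its paralogue Ndufa4l2 were counted here, since the Ndufa4 protein, first assigned to complex I, has been placed in complex IV. The 11 genes of mean signal 1000 or more lay between -0.21 and 0.34. Cox6b1, which faces the intermembrane space, had 3370 in the stimulated and 2670 in the control limb (0.34), just beyond the probe set SD. Cox7c had 3734 in the stimulated and 3152 in the control limb (0.24). Cox4i1, the ubiquitous form of the largest nuclear-encoded subunit, had 6727 in the stimulated and 6546 in the control limb (0.039). Of the other bright genes, Cox7b (5557 stimulated, 4927 control, 0.17), Cox5b (4414 stimulated, 4077 control, 0.11) and Ndufa4 (4229 stimulated, 4036 control, 0.067) were slightly higher. Cox6c (5310 stimulated, 5867 control, -0.14) was slightly lower. Cox7a2l, which helps to join complexes III and IV into supercomplexes and is not a subunit of complex IV on its own, had 1088 in the stimulated and 1209 in the control limb (-0.15).

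The dim complex IV genes stood furthest from 0. Cox5a (Entrez gene 252934) had 123 in the stimulated and 225 in the control limb, 1.83-fold lower. A brighter probe set that lists Cox5a together with an uncharacterised locus had 6738 in the stimulated and 8034 in the control limb, a log2 ratio of -0.25 against -0.87. The direction of Cox5a was the same on both, and only the dimmer one passed 1.5-fold. Cox4i2 (Entrez gene 84683), the oxygen-responsive isoform of subunit 4, had 27.1 in the stimulated and 49.4 in the control limb, 1.82-fold lower. Ndufa4l2 (Entrez gene 100362331), a hypoxia-inducible paralogue of Ndufa4, had 46.4 in the stimulated and 28.7 in the control limb, 1.62-fold higher. In mouse brain both are known as markers of pericytes, the contractile cells around capillaries, and here they went opposite ways. Cox6c-ps1, a pseudogene of Cox6c, had 26.4 in the stimulated and 39.7 in the control limb, a log2 ratio of -0.59, and sequence shared with Cox6c could contribute to it. Each of these 4 genes has a single probe set of its own, and all 4 are dim. Endothelial markers were lower in the same sample: 9 of 9 measured of 10 listed were below 0, with a median of -0.65 and a summed signal of 697 in the stimulated and 1286 in the control limb, and 0 were at 0. The part of vessel cells in the Cox4i2 and Ndufa4l2 values was not tested, and fewer cells of a type cannot be told apart from less RNA per cell in whole tissue.

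Isoform pairs of complex IV, of which muscle uses 1 form in its mature fibres, did not divide by tissue type. The muscle forms had log2 ratios of -0.21 for Cox6a2 (6559 stimulated, 7576 control), 0.14 for Cox8b (4467 stimulated, 4046 control) and 0.52 for Cox7a1 (100.0 stimulated, 69.7 control). Cox7a1 was thus 1.44-fold higher on a dim probe set, beyond the probe set SD. Among the ubiquitous forms, Cox6a1 had 717 in the stimulated and 623 in the control limb (0.20) and Cox8a had 1507 in the stimulated and 1357 in the control limb (0.15). A probe set that lists Cox7a2 with a like-named copy had 5802 in the stimulated and 4755 in the control limb (0.29). All of the ubiquitous forms were therefore above 0, and the muscle forms went both ways. The Cox6a pair was the only one of these with opposite signs, and their difference of about 0.4 came from 1 probe set each.

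**Figure D3:**
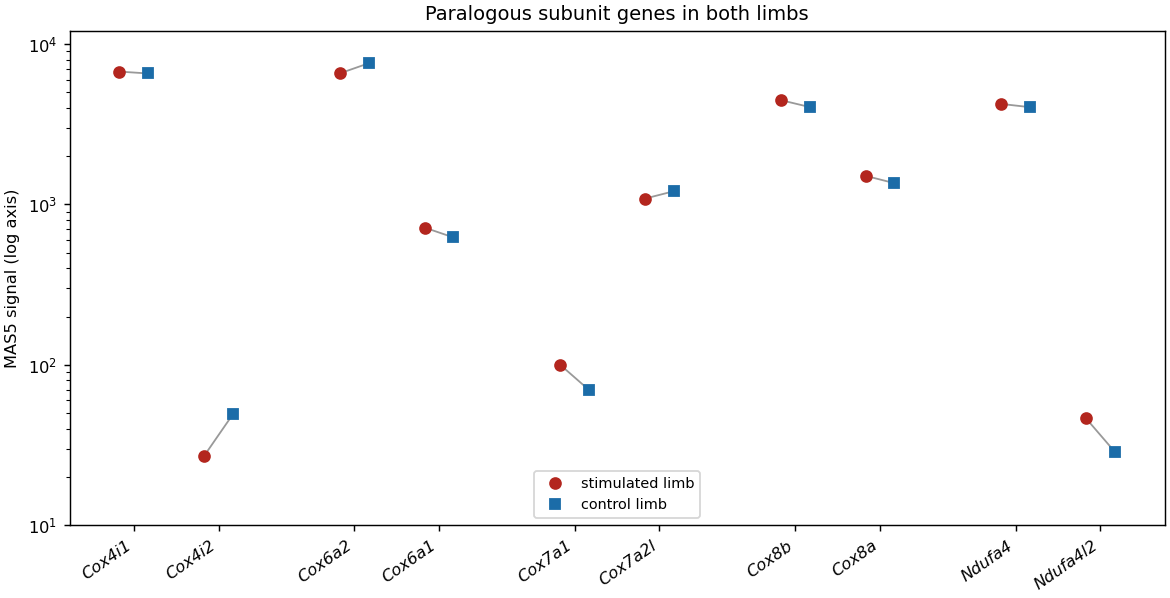
MAS5 signal (log axis) of paralogous subunit genes in the stimulated limb (red circles, left) and control limb (blue squares, right), 1 array per limb; levels of different genes come from different probes and cannot be compared. Cox4i2 is lower and Ndufa4l2 and Cox7a1 are higher in the stimulated limb, and the brighter partners differ little.

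Complex V, the ATP synthase, had a median of 0.067 over 16 genes, with 11 above and 5 below 0. The F1 head, where ATP is made, had its 3 large subunits below 0: the catalytic beta subunit Atp5f1b (5310 stimulated, 6480 control, -0.29), the gamma shaft Atp5f1c (5682 stimulated, 6298 control, -0.15) and the alpha subunit Atp5f1a (4040 stimulated, 4440 control, -0.14). The small subunits of its central stalk, Atp5f1d (3493 stimulated, 3051 control, 0.20) and Atp5f1e (7242 stimulated, 6839 control, 0.083), lay above 0. The 3 large subunits have mean signals above 4000, where all genes had a median of -0.14 and 61.5% were below 0. Atp5f1a and Atp5f1c were close to that median, while Atp5f1e, also above 4000, was not below 0. The part of brightness in these values was not tested. The signs of these 5 F1 genes held with quantile normalization and brightness-dependent centring. Both settings rescale the same 2 arrays and turned only members with a log2 ratio under 0.04 in size, so this is little support. Each value was within the probe set SD of all genes, Atp5f1b was beyond the 0.25 of the brightest genes, and with scaling to the spike-ins all 5 were above 0. Of the membrane part and side stalk, 8 of 10 genes were above 0, with a median of 0.067. Atp5mc3, a gene for the proton-carrying c-ring, had 6062 in the stimulated and 7317 in the control limb (-0.27). Probe sets listing its paralogues Atp5mc1 (0.090) and Atp5mc2 (0.15) with like-named copies lay above 0. In the side stalk, Atp5pb had 5097 in the stimulated and 5640 in the control limb (-0.15), and Atp5po, the OSCP subunit, 3875 in the stimulated and 3658 in the control limb (0.083). A second, dim Atp5po probe set (23.0 stimulated, 31.9 control) stood at -0.48. Atp5pd (4103 stimulated, 4054 control) and Atp5pf (3097 stimulated, 2949 control) were close to level.

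In complex V, Atp5me and Atp5if1 had the highest log2 ratios. Atp5me (Entrez gene 140608), the e subunit, which helps to hold synthase dimers together at the cristae, had 1110 in the stimulated and 765 in the control limb, 1.45-fold higher. Its dimer partner in the g subunit, Atp5mg, had 3259 in the stimulated and 3150 in the control limb (0.049). Atp5mk, also known as DAPIT, had 4110 in the stimulated and 3574 in the control limb (0.20). The 3 genes were all above 0, and Atp5me alone was beyond the probe set SD. Atp5if1 (Entrez gene 25392), the inhibitor IF1 that stops the synthase from running backwards and breaking down ATP, had 361 in the stimulated and 226 in the control limb, 1.60-fold higher. Its other probe sets were at the floor or below it, at 23.3 in the stimulated and 20.9 in the control limb (0.16) and at 11.1 in the stimulated and 11.5 in the control limb. The higher value of Atp5if1 thus rests on 1 probe set, a suffixed one, and the others, so close to background, cannot show whether it differed.

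Genes that serve the chain without being nuclear subunits of it were given by list. Of 13 mitochondrially encoded subunits, 2 had probe sets of their own, and both were lower: COX1 (12863 stimulated, 17052 control, -0.41) and COX2 (11493 stimulated, 15051 control, -0.39). Log2 ratios of the cre spike-ins (signals between 9747 and 15986) ran from -0.43 to -0.29, the 18 spike-ins of all signals had a median of -0.38, and all genes from 4000 up had one of -0.14. The part of brightness in the COX1 and COX2 values was not tested. Of 42 measured assembly factors, 26 were above 0, with a median of 0.046. At 1.5-fold, 2 were higher and 1 was lower, against 6.59% and 6.94% of all measured genes. These were the complex IV factors Pet100 (394 stimulated, 245 control, 0.69), Sco1, a copper chaperone (73.6 stimulated, 49.1 control, 0.59), and Coa5 (537 stimulated, 906 control, -0.75). The complex III factor Uqcc2 followed at 0.49 (1546 stimulated, 1104 control). Of 15 genes of electron carriers and ubiquinone synthesis, 8 were above 0, with a median of 0.031. The extremes were the ubiquinone methyltransferase Coq5 (161 stimulated, 96.8 control, 0.74) and Coq10b, a ubiquinone-binding protein (77.4 stimulated, 113 control, -0.54).

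The citric acid cycle and pyruvate dehydrogenase genes lay mostly below 0. Of 15 measured, 13 (86.7%) were below 0, against 47.7% of all measured genes, with a median of -0.12. At 1.5-fold, 0 were higher and 0 lower, against 6.59% and 6.94% of all measured genes. With only 15 genes, the absence of any at 1.5-fold says little about the list. Lowest were Sucla2, of succinyl-CoA ligase (1574 stimulated, 1978 control, -0.33), and Pdha1, of pyruvate dehydrogenase (1421 stimulated, 1747 control, -0.30). Sdha, which belongs to both the cycle and the chain, was at -0.40. Among 18 measured regulators of mitochondrial biogenesis, 9 were above and 9 below 0, with a median of 0.025. At 1.5-fold, 1 was higher and 3 were lower, against 6.59% and 6.94% of all measured genes. Pprc1, a coactivator related to PGC-1alpha, had 34.5 in the stimulated limb and 19.4, just under the floor, in the control limb, at least 1.74-fold higher. Lower were Gabpb1, a GABP subunit (43.9 stimulated, 69.3 control, -0.66), the coactivator Ppargc1b (29.5 stimulated, 45.1 control, -0.61) and Prkaa2, a catalytic subunit of AMPK (1025 stimulated, 1563 control, -0.61). Ppargc1a (72.1 stimulated, 80.4 control, -0.16) and the mitochondrial transcription factor Tfam (502 stimulated, 427 control, 0.23), named after their values were seen, lay within the probe set SD. Genes of the factors in the promoter search were also named afterwards. The GABP subunit Gabpa was at 0.28 (132 stimulated, 109 control), opposite in sign to Gabpb1, and Yy1 at -0.11 (332 stimulated, 358 control). Nrf1 was at 0.51 or more (28.2 stimulated, 18.3 control, the latter under the floor).

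The level respiratory chain stood beside larger differences in fibre and cell markers. Of 7 slow-fibre genes, 7 were above 0 and 5 were at least 2-fold higher, with a median of 2.06 and a summed signal of 1739 in the stimulated and 662 in the control limb. Of 10 measured fast-fibre genes of 11 listed, 9 were below 0, with a median of -0.42 and a summed signal of 83023 in the stimulated and 109687 in the control limb. The exception was Myh2 (2010 stimulated, 1008 control, 0.997). Most fast-fibre genes were about as bright as the cre spike-ins, whose log2 ratios ran from -0.43 to -0.29. The part of brightness in the fast-fibre values was not tested. Macrophage markers were above 0 for 12 of 12, with a median of 1.15 and a summed signal of 10735 in the stimulated and 2262 in the control limb. The largest stimulated signals in that sum were those of Gpnmb (3165 stimulated, 188 control) and Spp1 (2847 stimulated, 12.7 control). Cd14 (0.084) and Cd163 (0.090) were close to level. Adipocyte markers were below 0 for 5 of 5, with a median of -1.69 and a summed signal of 1304 in the stimulated and 3003 in the control limb. Under the floor on 1 array were 2 slow-fibre, 1 macrophage, 1 endothelial and 2 adipocyte genes, each in the limb where it was lower. Their ratios are therefore minimum sizes. The respiratory chain median of 0.049 lay near that of all measured genes, and the part of fibre type and of other cells in it was not tested.

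**Figure D4:**
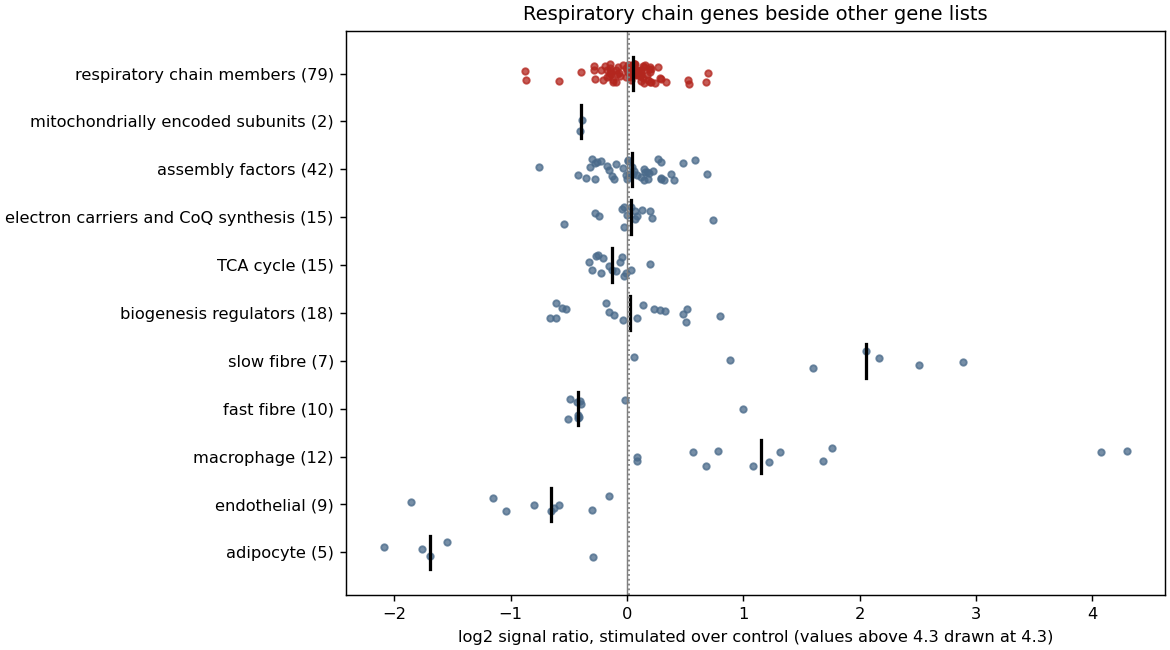
Log2 signal ratio of stimulated over control limb for each measured gene of the respiratory chain (red) and of other lists (blue), with the number of genes in brackets, a black bar at each list's median and a dotted line at the median of all measured genes. The chain is centred at 0.049, while slow-fibre and macrophage genes lie to the right and endothelial and adipocyte genes to the left.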

How the data were processed

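The deposited table held 1 signal intensity per probe set and array, which the authors computed with MAS5, as the submitters' processing notes name it; no source used here gives its version or scaling target. It held 31099 probe sets, of which 57 controls were left out. Signals were raised to a floor of 19.8, their median, before log2 ratios were taken, and of a gene's measured probe sets the one brightest on average was kept. Probe sets with several symbols, 7 of them naming a respiratory chain gene, were left out of the counts. All 81 members matched the RefSeq gene table (GRCr8) by gene identifier.

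With 1 array per group, no test was made, and the number of arrays limits the precision. Genes were counted at 1.5-fold and 2-fold beside the same count over all 9956 measured genes. Named in full were the 3 highest and 3 lowest genes of each complex, genes at 1.5-fold, paralogues, the complex I core, and up to 4 genes of each other list. Further members and regulators are given for their role. Members and lists were chosen with earlier results of these data known. Counting was tested on simulated data. Python 3.11.15, pandas 2.3.3, numpy 2.4.6 and statsmodels 0.14.6 were used.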

Additional observations from a re-analysis of the deposited data

How the results depend on the processing

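Scaling to the spike-ins moved the median of all measured genes to 0.39. The medians then became 0.43 for all members, 0.43 for complex I, 0.32 for II, 0.35 for III, 0.50 for IV and 0.45 for V. Members at 1.5-fold higher then numbered 12, with 0 at 1.5-fold lower, 2 at 2-fold higher and 4 below 0. This scaling raised the stimulated signals of all genes alike, and the shares of all measured genes under it were not counted. These counts are therefore no result about the members. Relative to the median gene, the same scaling left 30 below 0. Quantile normalization gave a median of 0.0095 for all members, with 36 below 0 and a median of 0.042 for all measured genes. Members at 1.5-fold higher numbered 1 with the floor at the 75th percentile, with a pseudocount of 16, with the median over probe sets, without suffixed probe sets and at a mean signal of 100 or more, and 0 without the genes that are not subunits, since Ndufa4l2 and Atp5if1 are among those. Members at 1.5-fold lower numbered 1 under that higher floor and at a mean signal of 100 or more, where the dim members drop out. Cox6c-ps1, which only just passed 1.5-fold at -0.59, fell short of it with other scalings. It was at -0.50 with quantile normalization and -0.48 with brightness-dependent centring. With the floor at the 25th percentile 1 member was 2-fold lower, Cox6b2, at a control signal of 12.1. Atp5if1 was at 0.16 without suffixed probe sets, on a probe set near the floor, and Cox5a at -0.25 with several-symbol probe sets added. Spike-in scaling relative to the median gene, settings on membership other than the removal of non-subunits, and the minimum signal were added after seeing the data. Apart from spike-in scaling, the medians of complexes I, IV and V stayed above 0 and those of II and III below 0 in every setting tried. These signs are relative to 0 and not to the median of all measured genes. With quantile normalization that median, 0.042, lay above the 0.0095 of all members. No paired analysis was possible because each limb has 1 array. Dim probe sets limit the Cox4i2, Ndufa4l2, Cox6c-ps1 and Cox7a1 values.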
